A study of Mus musculus with 3 samples.

Results

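The genes described here encode the machinery that copies DNA, from the proteins that mark replication origins to those that seal the new strands and repackage them. They were listed by name and by role, and no measured value enters the rule, though the list was drawn up with earlier results of these data known. Of the 53 genes listed, 52 had at least 1 probe set (a group of short probes for 1 transcript) whose platform annotation gives that symbol alone, out of 18080 such genes on the array. Chaf1a had none, so its signal is not analysed here, and it enters only the promoter counts. The 52 genes were read by 110 of 34831 probe sets.

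The study measured total RNA from F9 cells kept undifferentiated. F9 is an embryonal carcinoma line of the mouse that proliferates as stem-cell-like cells and serves as a model of early embryonic differentiation. RNA of 3 labelled replicates was put on 3 Affymetrix Mouse Genome 430 2.0 arrays. The labels give culture in DMEM with 10% fetal calf serum on dishes treated with 0.2% gelatin, and harvest at about 80% confluence. All 3 samples form 1 untreated group of 1 cell line, so no contrast between conditions exists, and the measured quantity is whether and how far each gene's signal lay above background on each array.

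Replication is prepared in G1, when the origin recognition complex, Cdc6 and Cdt1 load the MCM2-7 helicase onto DNA, a step called licensing, which geminin blocks later in the cycle. In S phase the kinases and the factors Cdc45 and GINS activate the helicase, DNA polymerases alpha, delta and epsilon copy the strands, and the sliding clamp PCNA, placed by the clamp loader RFC, tethers the polymerases. Embryonal carcinoma and embryonic stem cells are known for short G1 phases and a large share of cells in S phase, and many of these genes are known targets of the E2F transcription factors in mammalian cells.

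The promoter sequences of the genes are shown first, because the list was not chosen on sequence and many of its members share an E2F-type site. Promoter windows of 300 bases (250 before and 50 after the annotated start; RefSeq, GRCm38.p6) were found for 44 of the 53 listed genes. They were searched on both strands for the E2F-type letters TTTCCCGC, TTTCGCGC, TTTGCCGC and TTTGGCGC, overlapping matches being counted as 1 site. In the stretches below, which show such sites for licensing, helicase, polymerase and clamp loader genes, the capitals mark the matches and the flanks are 9 bases long.
Orc1, chr4:108579418-108579443, plus strand: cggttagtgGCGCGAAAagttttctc
Cdc6, chr11:98908004-98908029, plus strand: cggtggagaGCGGGAAAtcgcctggg
Cdt1, chr8:122568038-122568063, plus strand: aactaccttTTTGGCGCcatggcgca
Mcm5, chr8:75109347-75109376, plus strand: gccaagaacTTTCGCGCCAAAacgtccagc
Mcm6, chr1:128359736-128359761, minus strand: ttggacgggTTTGGCGCgaagtagct
Mcm6, chr1:128359795-128359824, minus strand: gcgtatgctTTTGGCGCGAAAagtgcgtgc
Mcm7, chr5:138171851-138171876, minus strand: gtgacgacgTTTCGCGCcaatttcgg
Mcm7, chr5:138172032-138172057, minus strand: tttcgaaccGCGGGAAAcagggtgtc
Gins3, chr8:95633509-95633534, plus strand: gagtgcggcGCGGGAAAgcgagtttg
Pola1, chrX:93632277-93632302, minus strand: catcacaggGCGCCAAAtgcactccc
Pole2, chr12:69228164-69228189, minus strand: tcggcggtgGCGCCAAAtcgcgaaca
Rfc3, chr5:151651192-151651227, minus strand: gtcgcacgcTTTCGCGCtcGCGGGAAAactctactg

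The 250 bases before the start of Mcm6 are printed whole because they hold 2 sites, the farther of which reads as overlapping matches on both strands.
Mcm6, chr1:128359706-128359955, minus strand: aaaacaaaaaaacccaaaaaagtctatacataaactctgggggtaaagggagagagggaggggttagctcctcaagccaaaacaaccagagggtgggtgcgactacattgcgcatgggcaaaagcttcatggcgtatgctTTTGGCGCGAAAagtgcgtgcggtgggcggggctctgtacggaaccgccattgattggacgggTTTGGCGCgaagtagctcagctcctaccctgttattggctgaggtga

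An E2F-type match was present in 16 of the 44 genes (36.4%), against 704 of 27025 genes in the whole promoter table (2.605%). Among the named genes on the array the share was 5.21% of those above background and 2.27% of those not above background. The further replication genes, described at the end, held a match in 7 of 28 cases (25.0%). The promoters of the replication genes were also richer in G and C, with a median of 62.3% against 52.7% over all windows, close to the 61.3% of genes above background, and its part in the shares was not tested. The matches were unevenly spread over the roles. They were found in 6 of 8 helicase genes (Mcm3, Mcm5, Mcm6, Mcm7, Mcm8 and Gins3), 4 of 8 licensing genes (Orc1, Orc3, Cdc6 and Cdt1), 4 of 7 polymerase genes (Pola1, Pold1, Pold3 and Pole2), 1 of 4 clamp loader genes (Rfc3) and Lig1. No match to these letters lay in the windows of Pcna or of the firing factor, single-strand binding and topoisomerase genes. The same held for Fen1, Rnaseh2a, Chaf1a and Chaf1b. It also held for the fork protection genes Timeless and Wdhd1, while Tipin had no window. This says only that these letters are not in these windows.

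Of the 20 sites, 10 were centred after the annotated start, and of 757 sites in windows of other genes 16.9% were. A window holds 250 bases before and 50 after the start, so evenly spread sites would mostly lie before it. The CCAAT box, the letters bound by NF-Y, was matched in 26 of 44 genes (59.1%), against 41.1% of all genes. The share was 43.7% of the named genes above background and 40.2% of those not above background. All 8 helicase genes with a window held a match, as did all 3 single-strand binding genes and Pcna. The CHR element, written TTTGAA and known from genes expressed late in the cell cycle, was matched in 8 genes (18.2%), against 20.2% of all genes, 13.9% of the named genes above background and 17.6% of those not above background, so it was below the first share and above the other two. A letter match is no evidence of binding, and these shares carry no test.

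**Figure D1:**
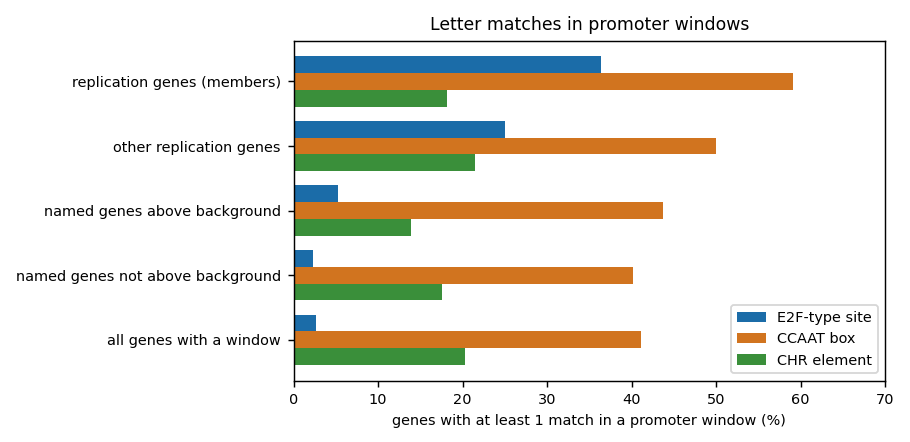
Share of genes (x axis, percent) with at least 1 match to the E2F-type letters, the CCAAT box or the CHR element in a promoter window, for the replication genes, the other replication genes and 3 wider sets (y axis). The E2F-type bar reaches 36.4% for the replication genes and lies between 2.27% and 5.21% for the 3 wider sets, with 25.0% for the other replication genes.

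All 52 measured replication genes lay above background on all 3 arrays. Signal was tested against a threshold set on each array by the 95th percentile of 127 probe sets for genes of narrow expression, namely those of keratin-associated hair proteins and of receptors for odours, pheromones and taste. The test was limma's moderated one-sided test of log2 signal over that threshold, with p-values adjusted by Benjamini-Hochberg over 45101 probe sets. The 52 calls compare with 9238 of 18080 named genes (51.1%), and their adjusted p-values ran from 0.000109 to 0.000309. The median height over the threshold was 4.95 log2 units for the replication genes, against 0.72 over all named genes and 3.22 over all named genes called. At the level of probe sets 94 of 110 were called, against 45.3% of all single-symbol probe sets. A gene is read here from its brightest probe set. Because brightness depends on how well each probe binds, heights over the threshold say how clearly a gene was detected and do not order the genes by RNA amount.

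**Figure D2:**
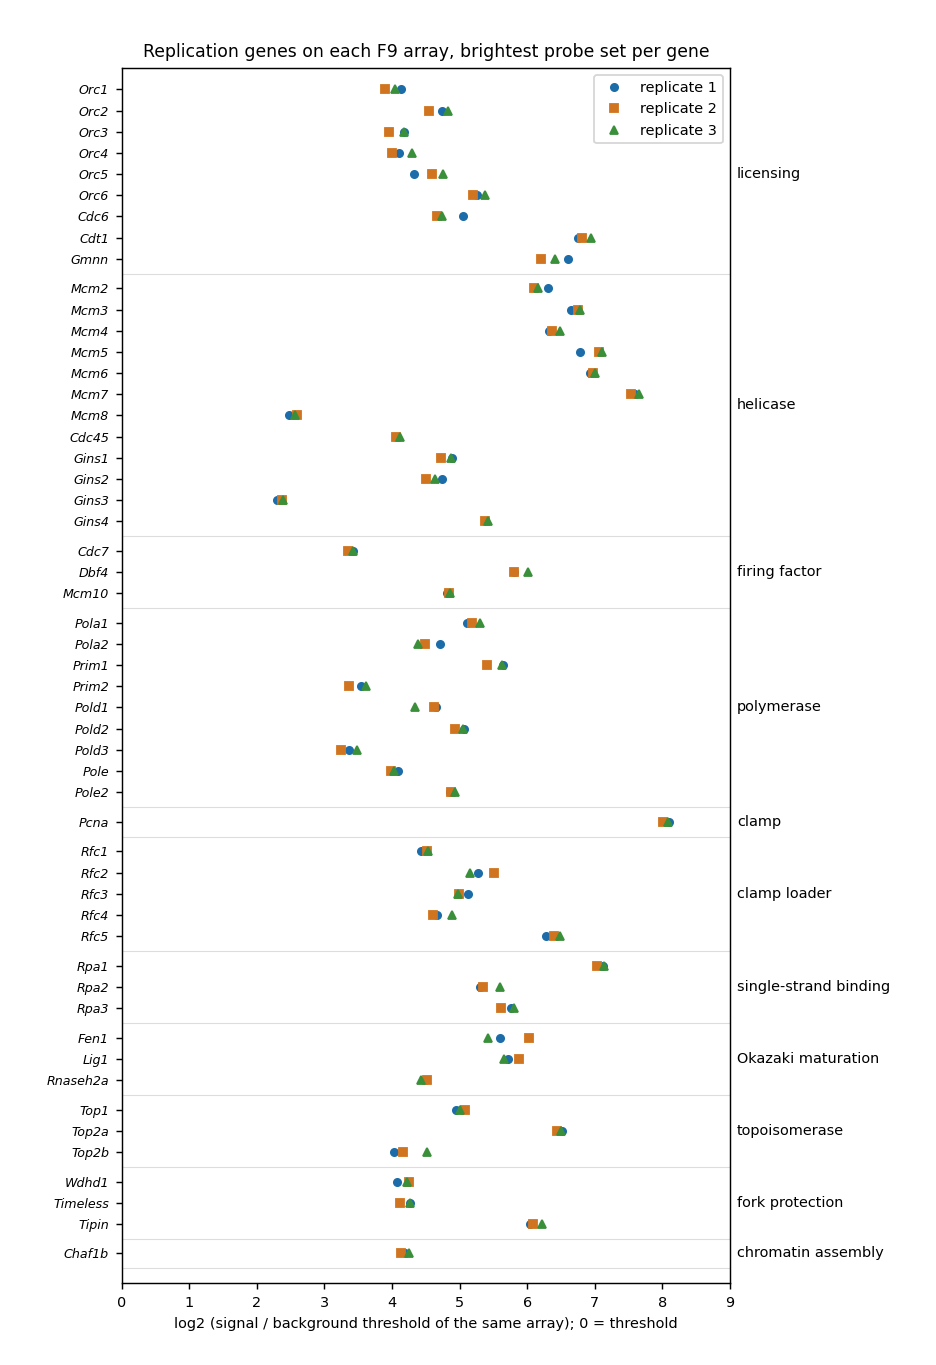
Height of each replication gene over background (x axis, log2 of signal over the array's threshold, 0 being the threshold) on replicates 1, 2 and 3 (symbols), with genes grouped by role (y axis). Every point lies to the right of the threshold, from Gins3 at the low end (mean 2.35) to Pcna at the high end (mean 8.06).

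The licensing genes were detected without exception, 9 of 9. Signals are given for replicates 1, 2 and 3 in that order, and heights as log2 units over the threshold ± SE (n = 3). The SE is limma's moderated SE, which is shrunk towards a variance shared by all probe sets. It is therefore not the spread of a gene's own 3 arrays. Orc1, the ATPase subunit of the origin recognition complex whose protein is known to cycle in mammalian cells, had signals of 778, 689 and 712, a height of 4.02 ± 0.12. The remaining subunits of that complex had signals of 1186, 1083 and 1230.4 for Orc2, 806, 716 and 778 for Orc3 and 768, 738 and 847 for Orc4. Orc5 read 896, 1113 and 1168, and Orc6, the smallest subunit, read 1698, 1691 and 1788. The origin complex was thus represented by all 6 subunits, with heights between 4.02 and 5.27.

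The helicase loaders and their inhibitor were also clear of background. Cdc6, an ATPase that joins the origin complex to load the helicase, read 1474, 1169 and 1149 (4.82 ± 0.14), with replicate 1 above the other arrays. Cdt1, which brings MCM2-7 to the origin, read 4802, 5147 and 5313 (6.83 ± 0.11). Gmnn, encoding geminin, which binds Cdt1 and prevents relicensing, read 4333, 3404 and 3677 (6.41 ± 0.14). An activator of licensing and its inhibitor were therefore both detected on every array in this mixed population of cells. Of 19 probe sets for the licensing group, 17 were called.

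All 12 helicase genes were called. On their brightest probe sets the 6 subunits of the MCM2-7 ring all stood more than 6 log2 units over the threshold. Some dimmer probe sets stood lower, down to 1.76 for Mcm5, 0.51 for Mcm3 and -1.40 for Mcm6. Mcm2 read 3516, 3174 and 3089.7 (6.19 ± 0.11), and Mcm3 read 4479.7, 4968 and 4766 (6.73 ± 0.11). Mcm4 read 3561, 3801 and 3853 (6.39 ± 0.11), and Mcm5 read 4894, 6176 and 5937 (6.98 ± 0.13). Mcm6, whose promoter stretch is printed above, read 5444, 5762 and 5555 (6.97 ± 0.11). Mcm7 read 8579, 8511 and 8702 (7.59 ± 0.11), and on that probe set the lowest and highest array differed by 0.032 log2 units. The other Mcm7 probe sets had ranges of 0.035, 0.15 and 0.25. On the brightest probe sets the heights of the ring subunits spanned 6.19 to 7.59.

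The helicase partners and the relative Mcm8 were called as well. Cdc45, which with GINS turns the ring into the active CMG helicase, read 742, 769 and 746 (4.08 ± 0.11). The GINS genes read 1312, 1215 and 1259 for Gins1, 1184, 1039.8 and 1072 for Gins2 and 1851, 1915 and 1842 for Gins4. Gins3 read 219.6, 239 and 225, and at 2.35 ± 0.11 it lay closest to the threshold among the 52 genes. Mcm8, which is not part of the MCM2-7 ring and works with Mcm9 in homologous recombination, read 248, 279 and 256 (2.55 ± 0.11). Both Gins3 probe sets were called, at heights of 2.35 and 2.17. Over the group 25 of 29 probe sets were called.

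The firing factors were called in 3 of 3 cases. Cdc7, the kinase that phosphorylates MCM proteins at origins, read 475, 469 and 462 (3.39 ± 0.11). Dbf4, its activating subunit, read 2480.2, 2568 and 2796 (5.87 ± 0.12). Mcm10, which helps the activated helicase leave the origin and is no member of the ring, read 1247, 1328 and 1245 (4.83 ± 0.11). The kinase and its activator were thus both detected, although 1 of the 2 Dbf4 probe sets was not called.

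The polymerase genes were called in 9 of 9 cases. For polymerase alpha-primase, which lays the RNA-DNA primers, the catalytic subunit Pola1 read 1539.7, 1676 and 1697 (5.20 ± 0.11) and its partner Pola2 read 1167, 1035 and 897 (4.53 ± 0.13). The primase genes read 2230.4, 1947 and 2140.1 for Prim1, the catalytic subunit (5.56 ± 0.12), and 521, 474 and 531 for Prim2, the large subunit (3.51 ± 0.12). All 4 subunits of the primer-making complex were detected. For polymerase delta, which copies the lagging strand, the catalytic Pold1 read 1114, 1129 and 873, and the accessory subunits read 1488, 1405 and 1425 for Pold2 and 457, 435 and 484 for Pold3. For polymerase epsilon, the leading-strand enzyme, the catalytic Pole read 754, 731 and 704 and Pole2 read 1297, 1351 and 1319. Heights in the group ran from 3.36 for Pold3 to 5.56 for Prim1. Of 19 polymerase probe sets 14 were called, and this group held 5 of the 16 probe sets of the whole list that were not.

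The clamp and its loader were called in full, both by gene and by probe set. Pcna, the ring that slides behind the polymerases, read 12180.5, 11913 and 11659.6 on its only probe set (8.06 ± 0.11), and its arrays differed by 0.063 log2 units. The loader genes were called on 11 of 11 probe sets. Rfc1, the large subunit, read 960.3, 1053 and 1001 (4.49 ± 0.11). The small subunits, which form the rest of the loader, read 1716, 2095 and 1534 for Rfc2, 1549.7, 1463 and 1354 for Rfc3, 1126, 1120.1 and 1274 for Rfc4 and 3459, 3863 and 3866 for Rfc5. Loader heights ran from 4.49 to 6.38. Set side by side, the share of probe sets called was 1 of 1 for the clamp, 11 of 11 for the loader, 17 of 19 for licensing, 25 of 29 for the helicase and 14 of 19 for the polymerases, with no test between the groups.

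Genes for handling the separated strands were detected on every probe set. Rpa1, the large subunit of the protein that coats single-stranded DNA, read 6174, 6058 and 6038 (7.09 ± 0.11). Its partners read 1764, 1877 and 2092 for Rpa2 and 2407, 2254 and 2406 for Rpa3. In the maturation of Okazaki fragments, the short pieces of the lagging strand, the flap nuclease gene Fen1 read 2166, 2999 and 1855 (5.68 ± 0.17) and the DNA ligase gene Lig1 read 2344, 2709 and 2186 (5.75 ± 0.12). Rnaseh2a, the catalytic subunit of the enzyme that removes RNA from DNA, read 1002, 1051 and 925 (4.47 ± 0.11). All 3 maturation genes were highest on replicate 2.

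The topoisomerase genes, whose enzymes unwind the strain ahead of the fork, were called in 3 of 3 cases but on 6 of 9 probe sets. Top1 read 1371, 1556 and 1391 (5.01 ± 0.11), and Top2a, the isoform of proliferating cells, read 4070.5, 3989 and 3920.4 (6.48 ± 0.11). Top1 was called on only 1 of its 3 probe sets, the others standing at 0.21 ± 0.28 and -2.95 ± 0.20. Top2a was called on 2 of 3, the remaining probe set standing at -3.83 ± 0.35. Top2b, the isoform that is also expressed in non-dividing cells, read 725, 828 and 992 (4.24 ± 0.16), lowest on replicate 1 and highest on replicate 3. Both type II isoforms were therefore detected.

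Fork protection and chromatin assembly were represented by 4 measured genes, all called. Wdhd1, known as And-1, which couples the helicase to polymerase alpha, read 749, 881 and 801. Timeless and Tipin, a complex that steadies the fork, read 857, 800.4 and 831 and 2919, 3126 and 3213. Chaf1b, the middle subunit of the histone chaperone CAF-1, read 810.4, 812 and 821 (4.19 ± 0.11) and had the narrowest range of the 52 genes, 0.019 log2 units.

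Probe sets for the same gene did not always agree. Of the 37 replication genes with several probe sets, 23 were called on all of them and 14 (37.8%) on only some, against 60.1% of the 5968 named genes that had several probe sets and at least 1 call. The 14 were Cdc45, Cdt1, Chaf1b, Dbf4, Gins1, Mcm3, Mcm6, Orc3, Pola1, Pola2, Pole2, Prim2, Top1 and Top2a. The files do not say which part of a transcript each probe set reads, and the cause of a dim probe set was not tested.

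Some of the dim probe sets lay at the threshold itself. The second Cdc45 probe set read 48.2, 30.8 and 60.6 (0.0067 ± 0.27), with replicates on both sides of the threshold. The second Chaf1b probe set read 50, 34.4 and 62.4 (0.092 ± 0.24), and the second Gins1 probe set 31.8, 27.3 and 51.2 (-0.33 ± 0.26). For Mcm3, 4 probe sets were called and 1 was not, reading 69.7, 41.6 and 88.6 (0.51 ± 0.29, limma adjusted p = 0.213). For Orc3, which had 2 probe sets called, the remaining one read 39.8, 59.3 and 68 (0.29 ± 0.22, limma adjusted p = 0.326). These heights were within 2 SE of the threshold, so neither a signal nor its lack could be told at this precision.

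Others lay clearly below. The uncalled Cdt1 probe set read 15.5, 2.41 and 1.49 (-3.55 ± 0.81), while the other two for that gene stood at 6.83 and 5.97. Mcm6 had a probe set at -1.40 ± 0.59 beside its called ones at 6.97 and 5.99, and Dbf4 had one at -0.95 ± 0.36. Among the polymerase genes the uncalled probe sets stood at -2.90 ± 0.73 for Pola1, -0.96 ± 0.12 and -2.45 ± 0.72 for Pola2, -3.05 ± 0.85 for Pole2 and -3.11 ± 0.14 for Prim2. Read from its dimmest probe set, each of the 14 genes loses its call, which leaves 38 of 52, against 5663 of 18080 named genes. The polymerases then have 5 of 9, the helicase genes 8 of 12, licensing 7 of 9, the firing factors 2 of 3, the topoisomerases 1 of 3 and chromatin assembly 0 of 1. The clamp, clamp loader, single-strand binding, maturation and fork protection genes lose none.

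**Figure D3:**
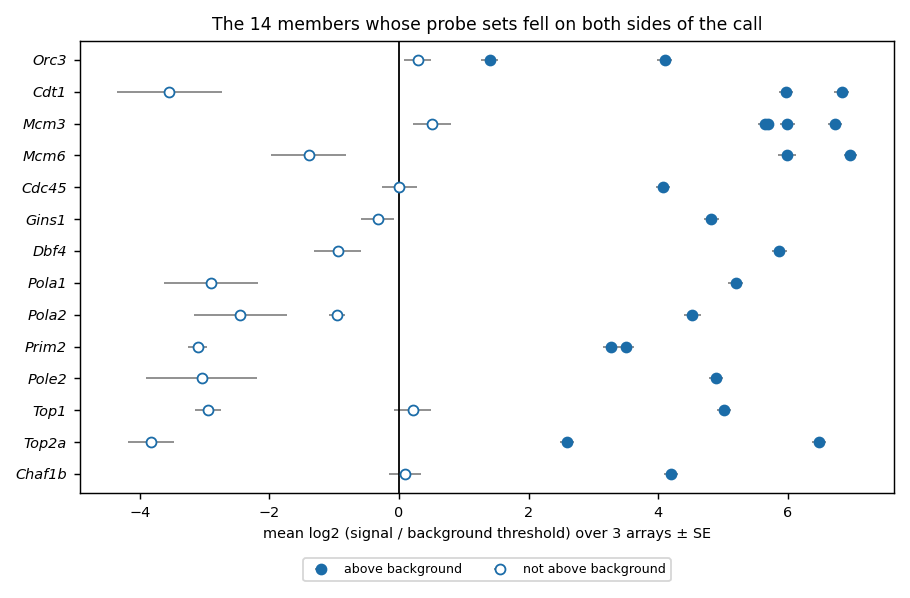
Every probe set of the 14 replication genes with mixed calls (y axis), drawn at its mean log2 height over the background threshold (x axis). Bars show ± limma's moderated SE over 3 arrays. Filled points were called above background and open points were not, the lowest open point being a Top2a probe set at -3.83.

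The replication genes varied little between the arrays. The median range, highest minus lowest log2 signal over the 3 arrays, was 0.16 log2 units for the 52 genes, against 0.23 over the 9238 named genes called. Over the 6283 called genes whose mean signal lay between those of Gins3 and Pcna it was 0.19. A range over 0.5 was found for 1 replication gene (1.92%), against 13.2% of all called genes and 5.76% of those in that span of signal. No test was made of these differences, since ranges shrink as signals brighten.

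The 5 widest ranges belonged to Fen1, Top2b, Rfc2, Orc5 and Pola2. Fen1 had a range of 0.69, with replicate 2 on top, but its other probe set, reading 1471, 1560.0 and 1471, had a range of 0.085. Top2b had a range of 0.45, and its other probe sets had 0.33 and 0.39 but ordered the arrays differently, reading 277, 220.4 and 267 and 106, 139 and 126. Rfc2 had a range of 0.45, also highest on replicate 2, and its dimmer probe sets had 0.37 and 0.23 and were both lowest on replicate 2, reading 153, 146 and 189.6 and 393, 335 and 377. Orc5, with a single probe set, had a range of 0.38, and Pola2 one of 0.38. For Fen1, Top2b and Rfc2, the order or the size of the array differences was thus not shared between probe sets.

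No array stood apart for the list as a whole. The median deviation of the 52 genes from their own mean was -0.017 log2 units on replicate 1, 0.0023 on replicate 2 and -0.0062 on replicate 3, against 0.0060, 0.0052 and -0.010 for all called genes. Replicate 1 held the highest value of 18 replication genes, replicate 2 of 17 and replicate 3 of 17. By role the counts were less even, with 0 of 9 licensing genes and 7 of 12 helicase genes highest on replicate 2. With 3 arrays of 1 group these counts are a description only.

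**Figure D4:**
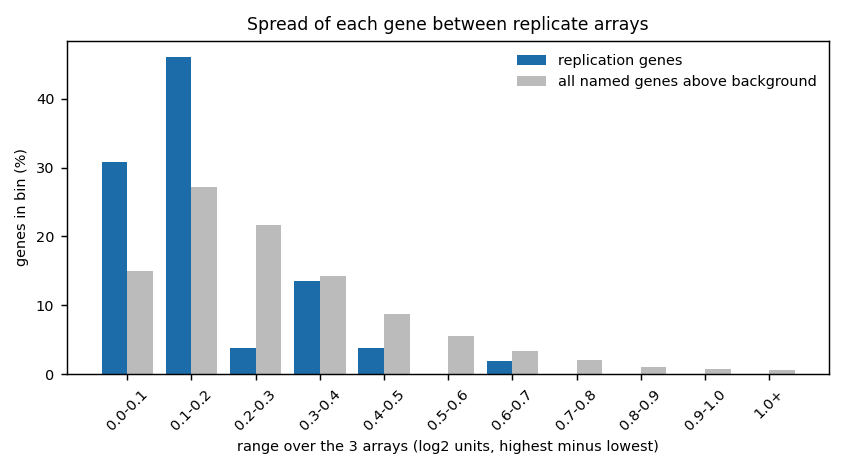
Share of genes (y axis, percent) by their range over the 3 arrays (x axis, log2 units), for the 52 replication genes and for all 9238 named genes above background. The replication genes gather under 0.2 log2 units, and Fen1 alone lies over 0.5.

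Other genes of the pathway were detected nearly as completely. Of 35 further replication genes, 34 were measured and 33 were called (97.1%, against 51.1% of all named genes), with a median height of 3.77 log2 units. Primpol, a primase-polymerase that restarts stalled forks, was the exception, reading 28.1, 6.92 and 42.9 on its only probe set (-1.14; limma adjusted p = 1.0). Ssrp1 had no probe set with that symbol alone. The small polymerase delta subunit Pold4 read 102, 72.1 and 60.2 (0.77 ± 0.20, limma adjusted p = 0.0351), the lowest call of the list beside Mcm9, the partner of Mcm8, at 110.1, 76 and 87.4 (1.01 ± 0.17, limma adjusted p = 0.0107). The Pold4 call was lost without any 1 replicate (limma adjusted p from 0.0701 to 0.11), and the Mcm9 call without replicate 3 (0.0635). Both were also lost with the threshold at the 99th percentile (limma adjusted p = 0.193 for Pold4 and 0.062 for Mcm9). The small polymerase epsilon subunits read 721, 615 and 579.9 for Pole3 and 717, 725 and 715 for Pole4. The partners of Rnaseh2a read 2004, 1954 and 2023 for Rnaseh2b and 1014, 1133 and 1051 for Rnaseh2c. Dna2, a nuclease-helicase, read 728, 645 and 690.3, and Mcmbp, which binds MCM proteins, read 1483, 1523 and 1509.6.

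Markers of the labelled cell type were detected in full. All 6 embryonal carcinoma markers were called, with Pou5f1, the gene for Oct4, at a mean signal of 6809 ± 279 (SD, n = 3) and Nanog at 4866 ± 392. Of 7 endoderm markers only Sox7 was called by limma's test. It was clear of background, with a mean signal of 889 ± 106 and a height of 4.31 ± 0.12 (SE), within the heights of the replication genes. That was the only 1 of 19 endoderm probe sets called, so the second Sox7 probe set was not. Gata6 (limma adjusted p = 0.0508) and Sox17 (limma adjusted p = 0.0735) missed the threshold. At an unadjusted p of 0.05, and likewise by signals over the background threshold on every array, 3 of the 7 passed. Of 6 fibroblast markers 0 were called by limma's test, 0 passed at an unadjusted p of 0.05 and 0 were over it on every array, with mean signals from 12.3 ± 8.59 for Postn to 43 ± 5.43 for Pdgfrb. Among genes of inhibitors that hold cells in G1, Cdkn1a at 241 ± 32 and Cdkn1c at 102 ± 25.2 were called, and Cdkn2a at 51.7 ± 14 and Cdkn2b at 35.5 ± 20.8 were not. The arrays average over cells in all phases, so the share of cells in S phase and the RNA per such cell cannot be told apart.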

How the data were processed

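The authors deposited 1 linear signal intensity per probe set and array, made with GCOS 1.4 per the submitters' processing notes (the signal algorithm and detection calls: not given in the sources used here). In the values, intensities deposited by the authors have medians of 37.8, 37.8 and 36.0 and the same mean, 249.9, after trimming 2% at each end, so each array had been scaled, and no further normalization was applied. Of 45101 probe sets, 34958 had 1 gene symbol in the platform annotation, 932 had several and, controls aside, 9160 had none. Leaving out the 127 that set the threshold, 34831 remained for 18080 genes. A gene was read from its probe set with the highest mean. Log2 signal over each array's threshold (44.6, 46.1 and 43.2) was tested one-sided (limma 3.58.1, R 4.3.3), calls being made at a Benjamini-Hochberg adjusted p under 0.05. No 2 arrays were copies (Pearson r across called genes from 0.988 to 0.991). Nothing in the labels says that the replicates were separate cultures. The p-values therefore reflect spread between these 3 samples alone, possibly technical, which limma pools in part over all probe sets. With 3 arrays the precision is limited.

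The members and lists were chosen with earlier results of these data known. All measured members are named. For mixed genes, values are given for the first 12 in alphabetical order and, with the topoisomerases, for Top1 and Top2a. For spread the 5 widest ranges are given. Of the further replication genes, the first 8 and any not called are named. Protein sequence motifs were planned and not analysed here.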

Additional observations from a re-analysis of the deposited data

How the results depend on the processing

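All 52 replication genes were called under 11 of the 12 alternatives: thresholds at the 90th and 99th percentiles, olfactory receptors alone as background, the probe set preferred by suffix, no _s_at or _x_at probe sets, quantile normalization, a signal floor of 16, signals over the threshold on all arrays with no test, and each replicate left out. The exception was the dimmest probe set per gene, which left 38, with 5 polymerase, 1 topoisomerase and 0 chromatin assembly genes, 20 of 34 further replication genes and 5663 named genes. The only chromatin assembly gene measured, Chaf1b, is the 0. Called probe sets of the list ranged from 92 to 93 with a replicate left out, against 94 of 110, and called named genes from 8700 to 8783. The further replication genes called ranged from 31 to 32 with a replicate left out. They numbered 31 with the threshold at the 99th percentile, and 32 under the suffix rule and without _s_at or _x_at probe sets. Median deviations and ranges over arrays moved by less than the spread between genes under quantile normalization and the suffix rule. That spread is a wide yardstick for a median: on replicate 1 the median deviation was -0.017, and -0.0047 under the suffix rule. The floor left the medians of the 52 genes unchanged. No paired analysis was possible because all samples form 1 group. Signal over background limits the calls near the threshold, such as Pold4 and Mcm9. It did not limit the 52 genes as read from their brightest probe sets, but some of their dimmer probe sets lay near the threshold. A called Mcm10 probe set stood at 0.66 ± 0.16 (limma adjusted p = 0.0315), and an uncalled Cdc45 probe set at 0.0067 ± 0.27.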

Other observations

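A probe set annotated to both Orc4 and Acvr2a was left out because it names 2 genes. It read 22.7, 38.1 and 18.2 on replicates 1, 2 and 3 and was not above background (limma adjusted p = 1.0). All 4 probe sets of Orc4 alone were called, though the dimmest stood at only 0.85 ± 0.21 (limma adjusted p = 0.0305).

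Outside the 52 genes, factors that package or mark new DNA were detected too. Rbbp4, the histone-binding subunit of CAF-1, read 7418, 7059 and 7685, and Asf1a and Asf1b, which pass histones to CAF-1, read 1956, 1859 and 1859 and 830.4, 826 and 738. Uhrf1, which reads hemimethylated DNA behind the fork, read 2510.2, 2639.7 and 2517. Nasp, a histone chaperone, read 4385, 4156 and 3962. Tonsl, which binds new histones at damaged forks, read 658, 538 and 401 and was the lowest on replicate 3 (0.71 log2 units between arrays). These genes were chosen after their values were seen.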
